A study of Homo sapiens with 18 samples.

Results

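The 2 nidogen genes and 8 of the laminin chain genes, NID1, NID2, LAMA1, LAMA3, LAMA4, LAMA5, LAMB1, LAMB2, LAMB3 and LAMC1, were described in LNCaP cells by their mRNA level, the accessible sites around them and the enhancers active around them. They are 10 of the 22336 genes in the mRNA-seq table and were found there by symbol. The set was chosen by name after earlier results of these files were known, and the enhancer upstream of NID1 was selected on its fold enrichment, the highest among 94527 enhancers, so that fold is given as a description with no test. Within 100 kb of an annotated start site of these genes lay 93 of the 94527 enhancers and 66 of the 51909 accessible sites.

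Basement membranes are thin sheets of extracellular matrix under epithelia and around vessels, muscle and nerve. Laminins are trimers of an alpha, a beta and a gamma chain. They polymerise into one of the networks of the sheet, and cells bind them through integrins and dystroglycan. Type IV collagen forms the other network, and nidogens bridge the networks by binding both the gamma chain encoded by LAMC1 and type IV collagen. The normal prostate gland rests on such a sheet, with basal cells attached to it and luminal cells above them.

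LNCaP is an androgen-responsive line from a human prostate adenocarcinoma. Enhancer activity was measured by whole-genome STARR-seq, in which random genomic fragments are cloned into a reporter so that an active fragment drives its own transcription. The plasmid library was sequenced as 1 input library, and RNA from transfected cells, kept 72 h in medium with charcoal-stripped serum, as 2 output replicates. For ATAC-seq, which maps accessible chromatin, 3 replicates were treated with trichostatin A (TSA), a histone deacetylase inhibitor, at 100 ng/ml for 24 h and 3 with DMSO as vehicle. For mRNA-seq there were 3 TSA, 3 DMSO and 3 untreated replicates, 18 libraries in all. The ATAC-seq and mRNA-seq cells shared the medium with stripped serum, the labels name no genetic modification, and the STARR-seq reporter is a plasmid outside native chromatin.

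The 6 files hold values pooled over libraries, so no value per replicate can be shown, the depth of each library and the spread between replicates are unknown, and no difference between TSA and vehicle was tested here. The mRNA value of a gene is 1 average over libraries that mixes treated and vehicle cells, and whether the untreated libraries enter it is not stated. The luminal identity of the cells was visible in that average. All 8 luminal genes exceeded 1 CPM (reads scaled to library size), with levels per kb of exon on the log2 scale from 2.89 for the protease gene KLK2 to 7.20 for the transcription factor gene HOXB13. Of 4 basal genes, KRT5 (log2 CPM per kb 5.07) exceeded 1 CPM, whereas KRT14 (-1.57), KRT15 (-4.10) and TP63 (-4.60) did not. Of 6 mesenchymal and endothelial genes, 3 exceeded 1 CPM, namely VIM (4.77), COL1A1 (4.20) and COL1A2 (-1.97), while CDH5 was at -4.48 and DCN at -5.63. Whether the levels of KRT5, VIM and COL1A1 came from TSA-treated or vehicle-treated cells cannot be told apart in an average over both.

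The strongest enhancers near 3 of the genes are shown first, because the position and content of these sequences carry most of what follows. Each line gives 300 bases of the plus strand of hg19 around the point of highest signal (the summit). Capitals mark matches to TGANTCA, the consensus of AP-1, the dimeric factor of the FOS and JUN families. None of the 3 windows overlapped an annotated exon.
NID1, open enhancer, chr1:236260461-236260760: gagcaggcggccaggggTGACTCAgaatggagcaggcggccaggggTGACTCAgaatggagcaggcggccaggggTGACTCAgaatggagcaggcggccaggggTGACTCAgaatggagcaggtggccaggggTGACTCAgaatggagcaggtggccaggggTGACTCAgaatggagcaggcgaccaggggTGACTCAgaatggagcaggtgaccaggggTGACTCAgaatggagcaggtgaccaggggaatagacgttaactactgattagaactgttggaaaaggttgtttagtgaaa
LAMA3, closed enhancer, chr18:21463452-21463751: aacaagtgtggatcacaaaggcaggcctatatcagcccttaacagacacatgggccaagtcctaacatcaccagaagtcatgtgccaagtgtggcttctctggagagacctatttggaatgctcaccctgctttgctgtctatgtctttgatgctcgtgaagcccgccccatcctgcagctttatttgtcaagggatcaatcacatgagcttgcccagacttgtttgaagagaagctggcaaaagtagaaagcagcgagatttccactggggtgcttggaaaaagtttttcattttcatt
LAMC1, open enhancer, chr1:182991471-182991770: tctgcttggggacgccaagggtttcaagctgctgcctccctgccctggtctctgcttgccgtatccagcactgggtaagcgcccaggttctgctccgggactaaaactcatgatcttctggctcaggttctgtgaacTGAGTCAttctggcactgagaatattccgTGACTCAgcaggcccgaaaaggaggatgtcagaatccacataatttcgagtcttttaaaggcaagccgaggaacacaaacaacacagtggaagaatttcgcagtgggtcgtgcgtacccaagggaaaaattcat

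The 10 genes differed widely in mRNA level. LAMB2, LAMC1, LAMA3 and LAMA5 were each above the 83rd percentile of all genes per kb of exon, while NID1 and LAMA4 were below the 4th. Without scaling to length, the former were above the 96th percentile of log2 CPM, NID1 at the 19.9th and LAMA4 at the 25.1st. The 2019 genes that share the lowest log2 CPM are ranked per kb by their length alone, so percentiles per kb near the bottom depend on length. Levels are given as log2 CPM per kb, the authors' average log2 CPM minus the log2 of the length of the union of annotated exons, and are the scale on which the genes are compared. Over 20786 genes with a length, the median was 1.49, and 5 of the 10 genes lay above it. Since there is 1 value per gene, whether neighbours in the order differ beyond the spread between replicates cannot be told.

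Both nidogens were low. NID1, on the minus strand of chromosome 1 with start sites at 236228390 and 236228409, had a log2 CPM of -2.04, which is 0.58 above the lowest value of the table (-2.62, shared by 2019 genes). Per kb its level was -4.58, at the 3.16th percentile and the lowest of the set. NID2, on the minus strand of chromosome 14 with its start at 52535777, had a log2 CPM of -0.01 and a level per kb of -2.29, which placed it 8th of the 10 genes.

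The alpha chains covered both ends of the range. LAMA3, whose product pairs with that of LAMB3 in the laminin that anchors epithelia, had a log2 CPM of 8.46 and a level per kb of 5.02. LAMA5 (chromosome 20, minus strand, start 60942368), the alpha chain of most adult epithelial basement membranes, had 7.82 and 4.31. LAMA1 (chromosome 18, minus strand, start 7117796), best known from early embryonic basement membranes, was intermediate, with a log2 CPM of 2.96 and a level per kb of -0.31. LAMA4 (chromosome 6, minus strand, starts from 112575740 to 112575912), a chain of vessel and muscle basement membranes, had a log2 CPM of -1.43 and a level per kb of -4.48, next to NID1 at the bottom of the order.

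Among the beta and gamma chains, LAMB2 (chromosome 3, minus strand, starts 49170483 and 49170551) had the highest level per kb of the set, 5.81 (log2 CPM 8.33), and LAMC1, the gamma chain shared by most laminins, was next with 5.56 (log2 CPM 8.54). LAMC1 starts at 182992555 on the plus strand of chromosome 1. LAMB1 (chromosome 7, minus strand, starts from 107642585 to 107643658) lay near the median of all genes with 1.92 (log2 CPM 4.60). LAMB3 (chromosome 1, minus strand, starts from 209824679 to 209825770), a partner of LAMA3, was below it with 0.80 (log2 CPM 2.95). LAMA3 was 4.22 log2 units above its partner LAMB3 per kb.

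**Figure D1:**
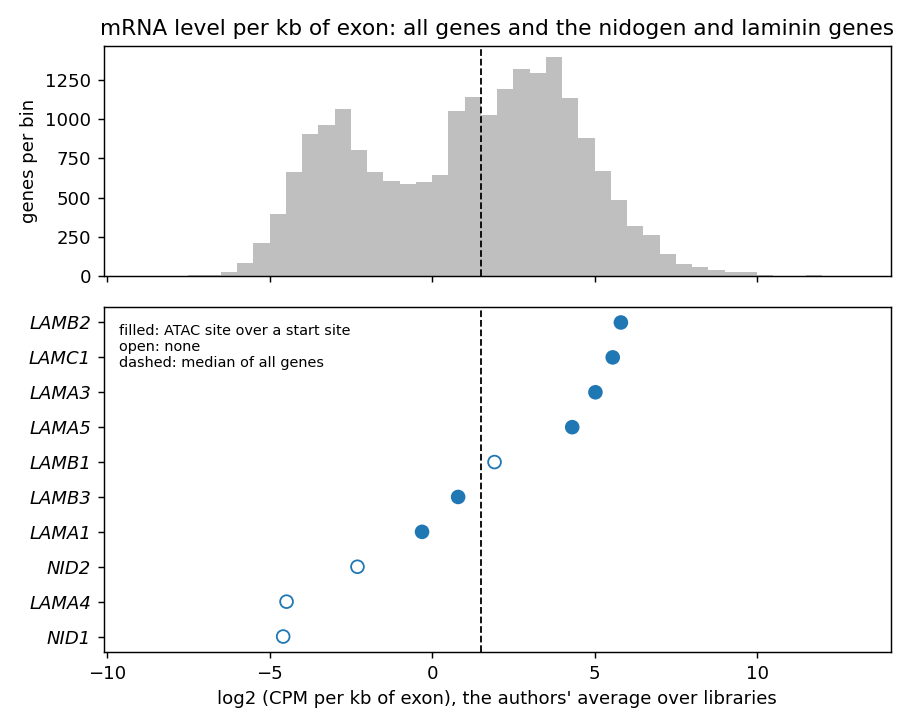
Upper panel, number of genes in each bin of mRNA level (log2 CPM per kb of exon, the authors' average over libraries). Lower panel, the 10 nidogen and laminin genes on the same axis, with filled points for an ATAC-seq site over a start site and the dashed line at the median of all genes, 1.49. The genes run from NID1 at -4.58 to LAMB2 at 5.81, and the 3 lowest, NID1, LAMA4 and NID2, have open points, as does LAMB1.

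The other genes of the basement membrane gave the setting for these levels, described by counts since no value allowed a test. The laminin chain genes LAMC3, LAMB4 and LAMA2, outside the set, were below 1 CPM, with levels per kb of -3.14, -3.65 and -3.85. Over all genes with a start site 67.6% exceeded 1 CPM, beside 7 of the 10 nidogen and laminin genes.

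Of 10 basement membrane collagens, 7 exceeded 1 CPM and the median level per kb was -0.81. COL4A5 (4.54), COL18A1 (3.43) and COL7A1 (2.16) were highest, and COL17A1 (-3.66), COL15A1 (-3.78) and COL4A1 (-4.52) lowest. COL4A1 encodes a chain of the most widespread type IV collagen and COL4A5 a chain of a more restricted one. Of 17 proteoglycans and linkers, 10 exceeded 1 CPM, with AGRN (4.21), HSPG2 (0.89) and FBLN2 (0.79) highest and TINAG (-3.66), SPARC (-3.99) and HMCN1 (-4.84) lowest.

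All 14 receptors exceeded 1 CPM, and their median of 3.33 was the highest of the basement membrane lists. The integrin beta chain gene ITGB1 (5.87), the collagen receptor gene DDR1 (5.76) and the dystroglycan gene DAG1 (5.15) led, and ITGA2 (0.65), ITGB4 (0.45) and ITGA1 (-2.11) were lowest. Of 13 enzymes that modify or cut the matrix, 10 exceeded 1 CPM. The lysyl hydroxylase genes PLOD1 (5.67) and PLOD3 (3.62) and the prolyl hydroxylase gene P4HA1 (4.57) were highest, and MMP2 (-1.80), LOXL2 (-2.03) and MMP14 (-3.64) lowest.

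Accessible chromatin over a start site was present at 6 of the 10 genes, LAMA1, LAMA3, LAMA5, LAMB2, LAMB3 and LAMC1, beside 60.7% of all genes. All 6 sites were in the peak lists of both TSA and vehicle cells. Of all sites within 100 kb of any gene start, 58.4% were in both lists. The share among sites that cover a start is not given. NID1, NID2, LAMA4 and LAMB1 had none, and their nearest sites lay 21.2, 19.7, 33.1 and 91.7 kb away. LAMB1 differed from the other 3 in that its mRNA was at a log2 CPM of 4.60.

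The peak score is the Fseq density of the pooled libraries, with no scaling stated, so scores were read against the cloud of all 27288 shared sites. For each list, a site took the highest score among the peaks that overlapped it. The TSA and vehicle scores of 1 site can therefore come from peaks at different places in it, above all in wide sites. There the median log2 ratio of TSA over vehicle was 0.10, with quartiles of -0.17 and 0.35, and over sites that cover a start site it was 0.19. At the LAMA1 start the TSA score was 0.0666 and the vehicle score 0.0391, a log2 ratio of 0.77, above the upper quartile and below the 95th percentile of 0.80. At LAMA5 the scores were 0.0862 and 0.0626, a log2 ratio of 0.46, also above the upper quartile. The other 4 start sites lay between the quartiles. The scores at LAMB3 were 0.302 and 0.252, those at LAMA3 0.0552 and 0.0537, those at LAMB2 0.0568 and 0.0584, and those at LAMC1 0.102 and 0.112.

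The site at LAMB3 had the highest score of the 6, although LAMB3 had a level per kb under the median of all genes. LAMA3 has start sites of long transcripts at 21269417 and 21269648 and of short ones at 21452984 and 21453009 on chromosome 18. The accessible site covered the former, and none lay over the latter. The site over LAMA5 was 10771 bases wide, against 1451 bases at LAMA1.

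**Figure D2:**
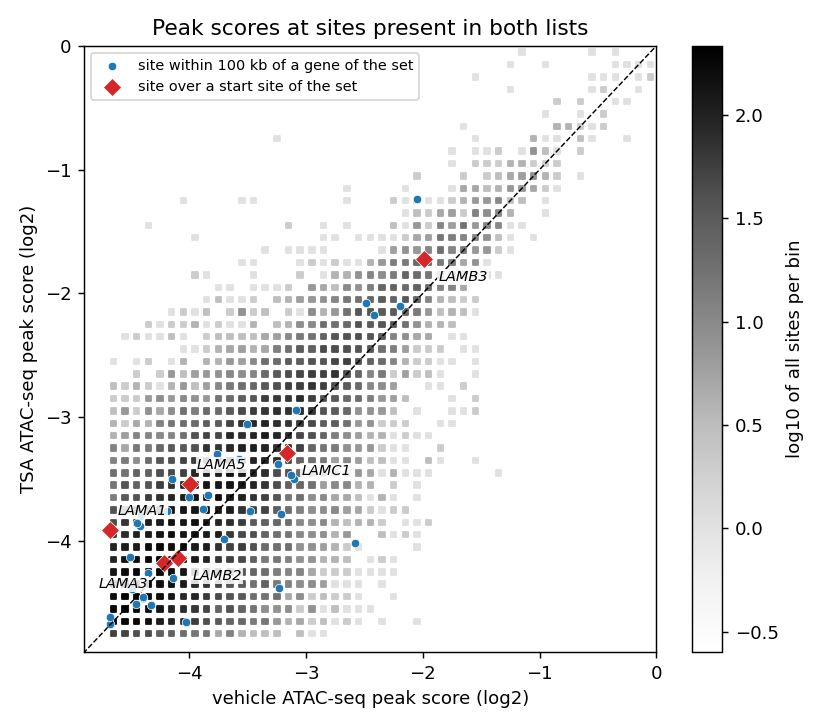
Each grey square is a bin of all sites present in both peak lists, by vehicle score (x axis, log2) and TSA score (y axis, log2), and the dashed line marks equal scores. Blue points are sites within 100 kb of the nidogen and laminin genes, red diamonds those over a start site. LAMA1 lies above the line at 0.0391 in vehicle and 0.0666 in TSA, and LAMC1 just below it at 0.112 and 0.102.

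Of the 66 sites within 100 kb, 42 were in both lists, 11 in the TSA list only and 13 in the vehicle list only. Over all sites within 100 kb of any gene start, 23.4% were in the TSA list only and 18.3% in the vehicle list only, beside 16.7% and 19.7% near these genes. The order of the counts in 1 list depended on the overlap and the score asked for, since with 0.5 or more of the site covered 20 were in the TSA list only and 14 in the vehicle list only, and among peaks at or above the median score of each list the counts were 9 and 3. A site missing from a list has no peak above the lowest score kept, 0.0377 for TSA and 0.0390 for vehicle, and the scores at sites of a single list ran from 0.0390 to 0.0683 for TSA and from 0.0410 to 0.0794 for vehicle.

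LAMB3 had the most sites, 19, followed by LAMA1 with 11 and LAMA5 with 10, where the median gene had 5. Near LAMB3, 1 site 93.6 kb upstream had scores of 0.424 in TSA and 0.242 in vehicle, a log2 ratio of 0.81, the only shared site of the 42 above the 95th percentile of all shared sites. A site 55.0 kb upstream of LAMB3 went the other way, with scores of 0.0617 and 0.168 and a log2 ratio of -1.44. A site 7.26 kb downstream of the LAMB3 start, in its transcribed region, had 0.0481 and 0.107, a log2 ratio of -1.15. Both were below the 5th percentile of -0.71. Higher and lower TSA scores thus stood side by side around LAMB3, which held 12 of the 42 shared sites. By construction, 5% of all shared sites lie beyond each of these percentiles, beside 1 and 2 of the 42. Neither the higher nor the lower scores can be set against a replicate spread.

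LAMA1 had 3 sites in the TSA list only and 3 in the vehicle list only. LAMA4 had a single site, 33.1 kb upstream, in the vehicle list only with a score of 0.0445. LAMB1 also had a single site, 91.7 kb upstream, in the TSA list only with a score of 0.0419, and the start site nearest to it was that of LAMB4.

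Of the 93 enhancers near the 10 genes, 17 lay in open chromatin, that is, overlapped a DNase I site of LNCaP cells in the authors' lists. This was 18.3%, beside 17.1% of all enhancers within 100 kb of any gene start. The median fold enrichment of output over input was 3.18 near these genes and 3.08 over all enhancers. It was 2.71 for the 17 open and 3.24 for the 76 closed enhancers, beside 2.78 and 3.10 over all open and closed ones. By their centres, 65 of the 93 enhancers were intronic, 20 intergenic, 6 in promoters and 2 in exons. For 54 the nearest gene start was that of the nidogen or laminin gene itself. Shares over all enhancers are not given for these counts, and the authors also placed most of their enhancers in introns or between genes. Fold enrichments above 5 were found at 7 enhancers (7.53%, beside 7.19% of all) and above 10 at 2, beside 1.11% of all. Both counts include the enhancer upstream of NID1, which was selected on its fold, so they were not read against these shares.

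The number of enhancers ranged from 1 at LAMB1 to 20 at LAMA3, where the median gene had 8. Open enhancers were unevenly placed. LAMA5 had 10 of its 14 in open chromatin, NID1 3 of 9, LAMC1 2 of 9, LAMB2 1 of 8 and LAMB3 1 of 10, and the other 5 genes had none. At least 1 open enhancer was thus found at 5 of the 10 genes, beside 69.0% of all genes. LAMA3 had 20 enhancers, all of them closed, although its mRNA was among the highest of the set and its long start was accessible. Its count was at the 98.9th percentile of all genes, and its start sites span 184 kb, the longest stretch of the set.

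**Figure D3:**
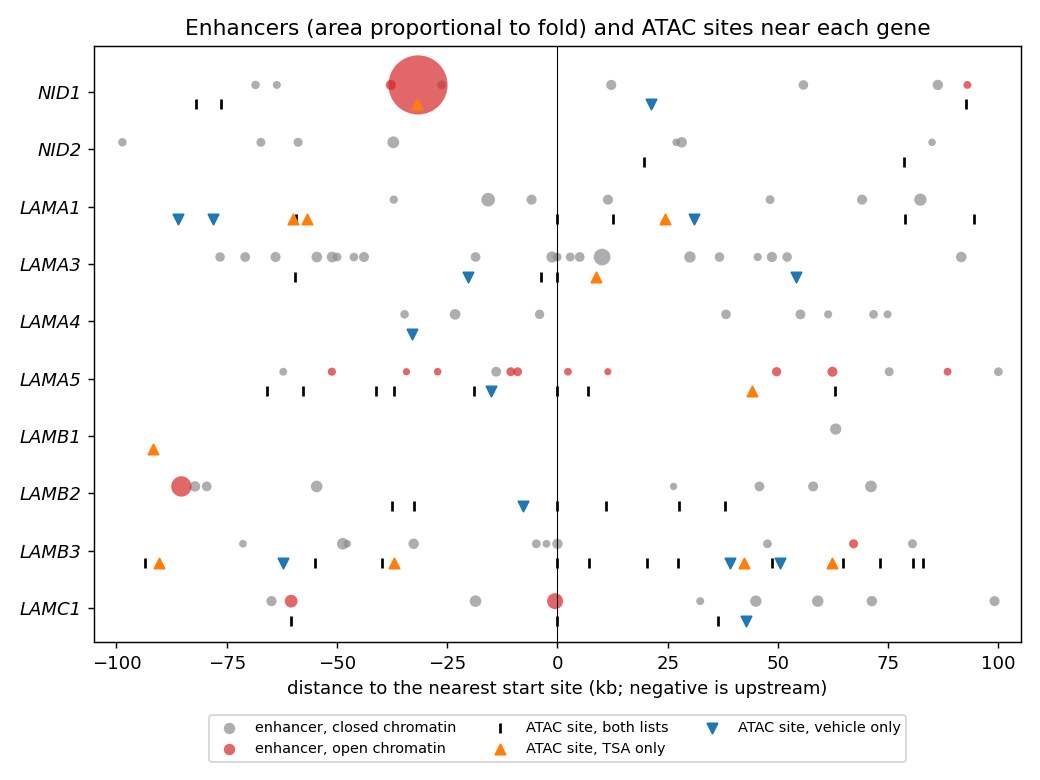
Enhancers (circles, area proportional to fold enrichment, red in open and grey in closed chromatin) and ATAC-seq sites (bars in both lists, upward triangles in the TSA list only, downward triangles in the vehicle list only) by distance to the nearest start site of each gene, in kb, negative upstream. The circle of the enhancer 31.6 kb upstream of NID1 stands for a fold of 119, and LAMA3 has 20 grey circles.

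The strongest enhancer of all lies upstream of the gene with the lowest mRNA level of the set. It covers chr1:236260023-236261152, in intergenic sequence 31.6 kb upstream of the NID1 start, which is also the nearest gene start. At its summit 6340 output fragments stood against 52.2 scaled input fragments, numbers recovered from the deposited fold and p-value. The scaled input is the count expected in the authors' peak calling, not a count of input fragments at the summit. For 5 of the 93 enhancers it equalled a genome-wide background of 8.40, among them the strongest closed ones near NID2 and LAMC1. The fold was 119, with an exact Poisson 95% interval of 116 to 122 that covers counting error of the output only, since both replicates were pooled. All such intervals treat output fragments as independent. The authors kept identical fragments from separately indexed libraries of a replicate, so the intervals may be too narrow. The enhancer next in rank of all, near another gene, had 78.7.

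The chromatin at this enhancer was open by DNase I. Its DNase I site had a score of 0.0754, at the 40.1st percentile of the open enhancers, whose median was 0.106. An ATAC-seq site of 546 bases lay within it, with a score of 0.0623 in the TSA list and no entry in the vehicle list, whose lowest score was 0.0390. Of all open enhancers 7.10% overlapped a peak of the TSA list only. Whether the site's signal rose with TSA was not tested.

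Among genes of the mRNA-seq table, the starts nearest to this enhancer were those of NID1, GPR137B at 44.7 kb and ERO1LB at 178 kb. The mRNA levels per kb were -4.58 for NID1, 4.70 for GPR137B and 1.60 for ERO1LB. The start of GPR137B, an integral membrane protein of lysosomes, was covered by an ATAC-seq site in both lists, with scores of 0.102 in TSA and 0.0735 in vehicle.

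In hg19, this enhancer upstream of NID1 holds a tandem array. TGANTCA was found 12 times in the enhancer, and 10 of the 11 steps from one match to the next were exactly 29 bases. Of the 12 matches, 11 read TGACTCA on the plus strand and the other TGATTCA. Over the 319 bases of the array, chr1:236260391-236260709, 96.2% of bases were the same as the base 29 positions on, whereas no other shift from 10 to 45 exceeded 39.8%. The array lies inside the ATAC-seq site of the TSA list, chr1:236260263-236260808. The commonest unit is shown because it carries 1 AP-1 match in each copy.
Unit of the array: TGACTCAgaatggagcaggcggccagggg
This unit occurs 4 times in the hg19 primary assembly, all 4 within the enhancer, and its first 20 bases occur 5 times, again all within the enhancer. The authors kept uniquely aligned fragments only. Their library was cloned from commercial human genomic DNA, and how many units its fragments held is not known.

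**Figure D4:**
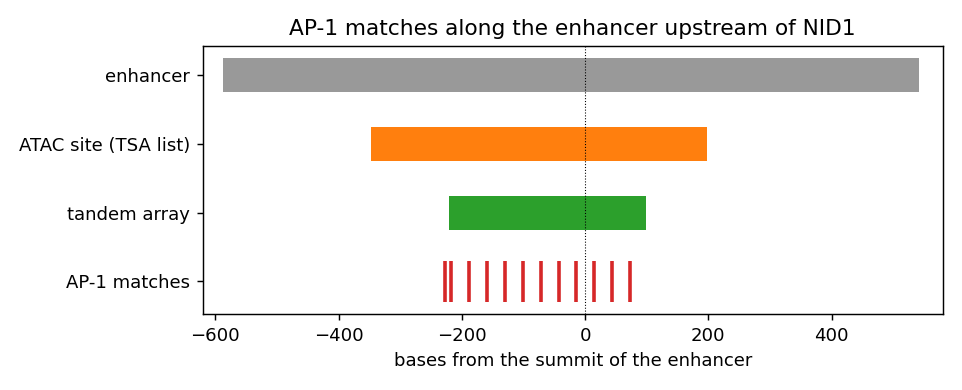
Extent of the enhancer, of the ATAC-seq site of the TSA list and of the tandem array, and the 12 matches to the AP-1 consensus (red ticks), in bases from the summit. The ticks are evenly spaced at 29 bases except for the first pair, and all 12 lie inside the accessible site.

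In the 300 bases around the summit, 8 AP-1 matches were counted. This number was reached by 5 of the 94527 enhancers, with folds between 4.64 and 119. Across the enhancers as a whole the median fold was 3.06 at 0 matches, 3.19 at 1, 3.41 at 2 and 4.29 at 3 to 7. The same order held among open enhancers, with 2.77, 2.90, 3.60 and 4.82, and among closed ones, with 3.09, 3.20, 3.41 and 4.19. This is a description across enhancers, which share libraries and base composition.

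The other 8 enhancers near NID1 had folds from 2.13 to 3.69. The strongest closed one (3.69, interval 2.90 to 4.63) lay 86.3 kb downstream of the start in an intron of NID1. An open enhancer 37.8 kb upstream, the next one beyond the strongest, had a fold of 3.48 and the higher DNase I score of 0.262. Near NID2, all 7 enhancers were closed. The strongest, 37.2 kb upstream, had a fold of 4.79 (interval 3.51 to 6.39) from 44 output fragments.

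Among the alpha chains, the strongest enhancer was closed at each gene except LAMA5. At LAMA3 it covered chr18:21463127-21464144, in an intron 10.1 kb downstream of the short start, with 159 output against 15.8 scaled input fragments and a fold of 9.53 (interval 8.12 to 11.1). It overlapped no ATAC-seq peak of either list. A site in the TSA list only, with a score of 0.0390, ended 969 bases before it. Another closed enhancer lay 43 bases upstream of the short start of LAMA3 with a fold of 2.56 (interval 1.91 to 3.37).

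At LAMA1 the strongest enhancer lay 15.7 kb upstream with a fold of 6.36 (interval 4.93 to 8.08). At LAMA4 it lay 23.2 kb upstream, in an intron of the antisense gene LAMA4-AS1, with a fold of 3.89 (interval 2.77 to 5.32). At LAMA5 the strongest open enhancer had a fold of 3.43 (interval 2.86 to 4.09), 62.4 kb downstream of the start and 1.37 kb from the start of ADRM1, a proteasome receptor gene. The strongest closed one near LAMA5 had 3.32 (interval 2.75 to 3.98) and lay nearest to the ribosomal protein gene RPS21. LAMA5 thus had 10 open enhancers and none above 3.43.

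Near LAMB2 the strongest open enhancer had 215 output against 14.3 scaled input fragments and a fold of 14.1 (interval 12.3 to 16.1), the next highest after that upstream of NID1. It lies 85.3 kb upstream of LAMB2, in an intron of IHO1. The nearest start was that of CCDC36, an older symbol of IHO1 and a meiotic gene, with a level per kb of -4.07. Its DNase I score was 0.0383 and it overlapped no ATAC-seq peak. The strongest closed enhancer, with a fold of 4.71 (interval 3.64 to 6.00), lay nearest to QRICH1. None of the 8 enhancers had LAMB2 as its nearest gene.

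LAMB1 had a single enhancer within 100 kb, closed, in one of its introns 63.1 kb downstream of the start, with a fold of 4.34 (interval 3.18 to 5.79). The nearest start to it was that of DLD, which encodes a subunit of mitochondrial dehydrogenase complexes. At LAMB3 a closed enhancer covered the start site itself, with 76 output against 20.1 scaled input fragments and a fold of 3.64 (interval 2.88 to 4.55). It overlapped peaks in both the TSA and the vehicle list, so that it was closed by the DNase I list and accessible by ATAC-seq. The strongest closed one near LAMB3 (4.62, interval 3.43 to 6.09) and the strongest open one (2.83, interval 2.14 to 3.67) lay nearest to HSD11B1 and CAMK1G.

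At LAMC1 a strong enhancer lay at an accessible promoter. An open enhancer at chr1:182991219-182992019, 536 bases upstream of the start, had 137 output against 14.9 scaled input fragments and a fold of 8.69 (interval 7.31 to 10.3). It lay in an ATAC-seq site that also covers the start and was in both lists. Its window, printed above, holds 2 AP-1 matches. Another open enhancer, 60.4 kb upstream, had a fold of 5.53 (interval 4.25 to 7.07) and also overlapped peaks in both lists, and the strongest closed one, 18.6 kb upstream, had 4.58 (interval 3.33 to 6.15).

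**Figure D5:**
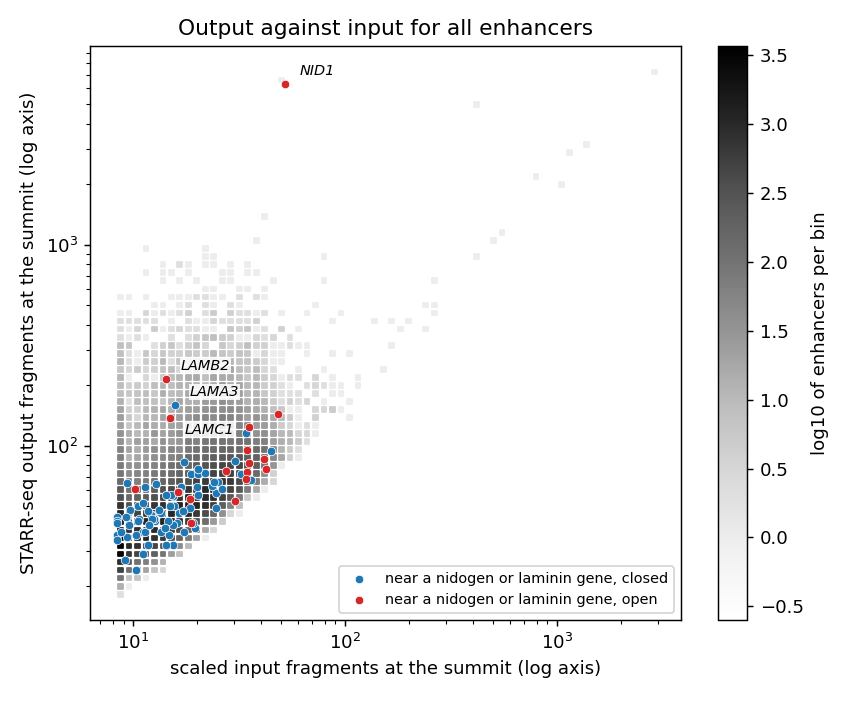
Output fragments (y axis) at the summit of each enhancer against the scaled input fragments expected there (x axis), both axes logarithmic. Grey squares are bins of all enhancers, and points are those near the nidogen and laminin genes (red open, blue closed). The enhancer near NID1, at 6340 against 52.2, stands far above the cloud, and those next by fold, near LAMB2, LAMA3 and LAMC1, have 215, 159 and 137.

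By ATAC-seq, 12 of the 93 enhancers overlapped a peak (12.9%, beside 8.46% of all enhancers), 7 in both lists (5.49% of all), 2 in the TSA list only (2.20% of all) and 3 in the vehicle list only (0.769% of all). All 93 lie within 100 kb of a gene start, whereas 64323 of all 94527 enhancers do, so the bases of these shares differ. No share over those 64323 is given here. By the merged site that an enhancer overlapped, 11 of the 12 were accessible in both lists, and the exception was the one upstream of NID1, in the TSA list only. No share over all enhancers is given for this count, so it was not set against a background. In windows of 300 bases on both strands, 16 of the 93 enhancers held TGANTCA, beside 11.6% of all enhancers. As the reverse complement of this motif is the motif itself, each place was counted once. The SP and KLF motif GGGCGG was in 10 (8.03% of all), the TEAD motif GGAATG in 12 (16.6%) and the FOX motif TGTTTAC in 5 (4.71%). The NRF1 palindrome and the full androgen receptor palindrome were in 0 of the 93, beside 0.110% and 0.0021% of all enhancers. Of the 7 enhancers with a fold above 5, 4 held an AP-1 match, among them those shown for NID1, which was selected on its fold, and LAMC1 and the one 60.4 kb upstream of LAMC1. Of all 6798 enhancers with a fold above 5, 16.7% held a match.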

How the data were processed

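WHG-STARR-seq, ATAC-seq and mRNA-seq of LNCaP cells were used, with groups taken from the labels. For mRNA-seq, the authors aligned reads to hg19 with TopHat and counted them per RefSeq gene, and their deposited edgeR table gives an average log2 CPM. ATAC-seq reads were aligned by the authors with Bowtie and, after cutadapt, Bowtie2, then passed to Picard and Fseq, and they deposited a peak score per condition from pooled libraries and an average log2 CPM per merged site. For STARR-seq, the authors used Bowtie, collapsed identical fragments with Picard within each indexed library, and pooled these libraries and both output replicates. They called enhancers with MACS2 at a q-value under 0.05. Deposited were a fold ratio of output over input and the −log10 p-value and q-value, with a DNase I site score for open enhancers. Tool versions were not stated in the labels or methods. The edgeR tables also hold the authors' fold changes and p-values of TSA against vehicle, which were not used. There were 0 unused columns of per-sample values.

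The genes and lists were chosen with earlier results of these data known. Named were the 10 genes, the 3 highest and 3 lowest genes per length of each list, the strongest open and closed enhancer of each gene, those within 1 kb of a start, and the gene nearest to each. A gene of 1 list and the sequence of 1 enhancer are not reported here. Other enhancers and sites singled out were chosen after their values were seen. Symbols were matched to the GENCODE annotation of GRCh37 for 20786 of 22336 genes (basic transcripts), directly or by RefSeq synonyms. A region counted as near within 100 kb of a start by any base, and overlap meant at least 1 base. A centre was called promoter within 1000 bases before or 100 bases after a start. Output fragments were recovered from fold and p-value, whole to within 0.041, with exact Poisson 95% intervals, tested on simulated independent counts. Depth per library is unknown. Sequences are from GRCh37. Python 3.11.15, numpy 2.4.6, pandas 2.3.3, scipy 1.17.1, pysam 0.24.0, samtools 1.23.1 and matplotlib 3.10.9 were used.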

Additional observations from a re-analysis of the deposited data

How the results depend on the processing

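The files hold pooled values, so depth and replicate spread could not be assessed, and leaving out a replicate was not possible. No paired analysis was possible because no file holds values per library. With a distance of 50 kb in place of 100 kb there were 50 enhancers, 10 of them open, and 24 sites in both lists, 6 in the TSA list only and 8 in the vehicle list only. With 200 kb the counts were 179, 32, 71, 22 and 25. At a q-value under 1e-10, 44 enhancers remained, 9 of them open. For 54 enhancers the nearest start was that of a nidogen or laminin gene. Defined by overlap with a vehicle ATAC-seq peak, 10 enhancers were open in place of 17. With 0.5 or more of the site covered, 20 sites were in the TSA list only. Among peaks at or above the median score of each list, 21 sites were in both lists, 9 in the TSA list only and 3 in the vehicle list only. Under a q-value of 1e-05 (78 enhancers), start sites of all transcripts (125) and distances from the centre (92) the count of enhancers stayed within 1.5 times that reported. The 5 genes above the median level stayed 5 by the longest transcript and, against the 20786 genes with a length, without scaling. Against all 22336 genes without scaling, a setting chosen after seeing the data, 7 were above the median. Without the pseudocount the fold upstream of NID1 was 121. The cause of these shifts was not tested beyond the settings' own construction.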
